A study of Mus musculus with 48 samples.

Results

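RNA signal was compared from region to region within the brains of 5xFAD-LynKO and of 5xFAD mice, both of them amyloid models, each genotype taken on its own. The deposited table of the series has 16 columns, and the 10 used here are the 5 headed 5xFAD-LynKO and the 5 headed 5xFAD. The other 6 are headed WT. Genes were kept in a genotype when their signal was over 1.5 times that of the negative control probe, a probe with no target in the mouse, in at least 3 of its 5 columns. Of 19962 targets, 2035 were kept in 5xFAD-LynKO and 1662 in 5xFAD, and 1457 were kept in both. Those 1457 are 71.6% of the 5xFAD-LynKO genes and 87.7% of the 5xFAD genes. No test was made between the genotypes.

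GeoMx digital spatial profiling hybridises tagged probes to a tissue section, releases the tags of a chosen region with light and counts them. The sections were frozen slices of brain from mice perfused with fixative. 5xFAD mice carry human transgenes, APP among them, with familial Alzheimer mutations under the neuronal Thy1 promoter, and 5xFAD-LynKO mice carry them together with a knockout of Lyn, a tyrosine kinase of the Src family found in myeloid cells. No source used here gives the age, sex or strain background, and the series' APP animals were not analysed here.

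Regions were chosen by immunofluorescence, and the titles name 24 segments positive for TMEM119, a surface protein of microglia, and 24 positive for GFAP, the filament protein of astrocytes. The headings carry a genotype and a number but no marker, brain area or animal. They are treated as TMEM119-positive segments on the strength of the series' statement that microglial expression was what it analysed, and none was matched to a title. Since 6 regions were placed on a slice for each marker, some columns may come from 1 animal or slice, and their spread is then not that between animals.

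Microglia are the resident macrophages of the brain, and in amyloid models they gather around plaques and switch on lipid-handling and lysosomal genes. They lie among the processes of neurons, astrocytes and oligodendrocytes, so a segment outlined on a microglial stain in a section can also hold RNA of those cells. Neuronal RNA differs between brain areas: the vesicular glutamate transporter Slc17a7 marks neurons of cortex and hippocampus, the dopamine-signalling protein Ppp1r1b marks striatum, and the hormone oxytocin is made in hypothalamus.

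Most markers of the labelled cell type were at background. Tmem119 stood at 0.76, 0.75, 0.69, 0.76 and 0.74 times the column median in 5xFAD-LynKO columns 1 to 5, and at 0.78, 0.54, 0.67, 0.63 and 0.62 times in 5xFAD columns 1 to 5. Its mean was 0.788 times the negative probe in 5xFAD-LynKO and 0.685 times in 5xFAD. Of 17 microglial and myeloid markers, among them Csf1r, C1qa, Cx3cr1, P2ry12 and Trem2, 1 was kept in each genotype. It was Aif1, a calcium-binding protein of macrophages, at 1.54 to 2.16 times the column median in 5xFAD-LynKO and 1.44 to 2.42 times in 5xFAD. Of 18 disease-associated microglial genes, 4 were kept in each genotype, among them the lipid carrier Apoe, also made by astrocytes, at 2.05 to 4.88 times in 5xFAD-LynKO and 1.97 to 4.43 times in 5xFAD. Gfap, at a mean of 1.29 times the negative probe in 5xFAD-LynKO and 1.23 times in 5xFAD, was not kept in either, nor was Lyn, at 1.21 times in 5xFAD-LynKO and 1.15 times in 5xFAD. By the same filter, 12 of 14 pan-neuronal genes were kept in 5xFAD-LynKO and 13 of 14 in 5xFAD. Over all targets it kept 10.2% in 5xFAD-LynKO and 8.33% in 5xFAD, and 1 of 17 microglial and myeloid markers is near those shares. In such bulk segments fewer cells of a type in a region cannot be told apart from less RNA per cell.

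Depth differed less between columns than the number of targets above background did. Implied probe counts ran from 3206962 to 5793279 per column in 5xFAD-LynKO and from 3205260 to 4148602 in 5xFAD. Targets above 1.5 times the negative probe numbered 894, 3359, 2076, 1553 and 3426 in 5xFAD-LynKO columns 1 to 5, and 1735, 1837, 1374, 2838 and 1579 in 5xFAD columns 1 to 5. Column 1 of 5xFAD-LynKO thus had the fewest targets above background of the 10 at an implied count of 5003880. Columns 3 and 5 of 5xFAD were close to each other: a chi-square of their implied counts gave 1.18 per degree of freedom, where other pairs of 5xFAD gave 1.74 to 3.33 and pairs of 5xFAD-LynKO gave 2.09 to 6.65. A value of 1 is what count noise alone would give, and whether these columns sample 1 region again was not tested.

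The 4 promoters below belong to genes of large spread in both genotypes, chosen after their values were seen, 2 of them high where synaptic genes of excitatory neurons were high and 2 of them high elsewhere. Each is the RefSeq window (GRCm38.p6) of 250 bases before the transcript start and 50 from it on, 5′ to 3′ on the gene's strand, at chr9:37552696-37552995 (minus strand) for Nrgn, chr7:45163671-45163970 (plus) for Slc17a7, chr1:79439977-79440276 (minus) for Scg2 and chr6:58907077-58907376 (minus) for Nap1l5. Capitals mark exact matches on either strand to TGACGTCA, the letters of the cAMP response element, to CACGTG, those of an E-box, or to TATAAA, those of a TATA box.
Nrgn: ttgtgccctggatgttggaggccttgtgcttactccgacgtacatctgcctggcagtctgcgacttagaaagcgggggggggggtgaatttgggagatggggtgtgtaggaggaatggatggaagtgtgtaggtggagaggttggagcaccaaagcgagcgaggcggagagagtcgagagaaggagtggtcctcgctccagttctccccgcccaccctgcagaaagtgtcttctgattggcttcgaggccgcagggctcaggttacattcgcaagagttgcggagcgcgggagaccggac
Slc17a7: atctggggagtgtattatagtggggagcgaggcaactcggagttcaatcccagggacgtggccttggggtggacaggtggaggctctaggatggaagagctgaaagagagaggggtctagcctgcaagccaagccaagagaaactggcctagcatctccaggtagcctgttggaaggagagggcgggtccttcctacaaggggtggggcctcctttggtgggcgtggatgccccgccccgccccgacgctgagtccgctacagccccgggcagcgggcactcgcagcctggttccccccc
Scg2: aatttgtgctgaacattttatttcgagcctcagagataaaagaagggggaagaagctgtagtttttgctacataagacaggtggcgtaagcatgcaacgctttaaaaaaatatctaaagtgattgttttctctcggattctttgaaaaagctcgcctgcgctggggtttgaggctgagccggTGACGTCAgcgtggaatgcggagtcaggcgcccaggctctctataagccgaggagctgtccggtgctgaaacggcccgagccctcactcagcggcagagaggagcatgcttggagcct
Nap1l5: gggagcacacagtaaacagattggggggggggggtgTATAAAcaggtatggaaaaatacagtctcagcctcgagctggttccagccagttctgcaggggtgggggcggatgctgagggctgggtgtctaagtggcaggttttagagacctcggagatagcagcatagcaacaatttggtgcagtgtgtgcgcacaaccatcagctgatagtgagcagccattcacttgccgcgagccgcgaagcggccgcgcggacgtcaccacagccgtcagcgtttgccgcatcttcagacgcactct
The Scg2 window held 1 cAMP response element, starting at base -68 from the transcript start, and the Nap1l5 window held 1 TATAAA, starting at base -214. The windows of Nrgn and Slc17a7 held none of the letters searched. Over all 32851 promoter windows of the same length, 1.79% held TGACGTCA, 7.15% held CACGTG and 13.6% held TATAAA. These matches describe the letters of the windows, wherever they lie, and were not set against the signal. Near matches were not marked, and whether a match acts as the named element was not tested.

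The highest genes were neuronal and ubiquitous genes and were largely the same in both genotypes. Chic2, which encodes a cysteine-rich hydrophobic domain protein, had the highest mean log2 level in each. Its signal was 6.67, 17.6, 13.7, 10.9 and 20.9 times the column median in 5xFAD-LynKO columns 1 to 5, and 16.1, 16.0, 14.3, 17.4 and 13.4 times in 5xFAD columns 1 to 5. All 5 columns of 5xFAD lay close together, while those of 5xFAD-LynKO differed by up to 3.13-fold, with column 1 lowest. The SD of the log2 level over columns was 0.64 in 5xFAD-LynKO and 0.15 in 5xFAD.

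Ubb, a polyubiquitin gene, had the second highest mean log2 level in each genotype. It had 5.62, 17.8, 14.5, 9.76 and 24.6 times the column median in 5xFAD-LynKO, against 7.15, 12.4, 11.6, 13.7 and 12.5 times in 5xFAD. Column 1 was lowest in each, and its SD was 0.82 in 5xFAD-LynKO and 0.37 in 5xFAD. App, the amyloid precursor protein, had 4.81, 10.7, 8.99, 5.97 and 10.2 times the column median in 5xFAD-LynKO, against 6.17, 7.83, 5.63, 8.84 and 5.49 times in 5xFAD. Whether its probe also reads the human APP transgene is not given in the sources used here.

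Fth1, the heavy chain of the iron store ferritin, ran the other way from most high genes in 5xFAD-LynKO. It was 13.2, 11.0, 8.81, 11.2 and 5.84 times the column median in 5xFAD-LynKO columns 1 to 5, with column 1 highest and column 5 lowest. In 5xFAD it was 4.69, 8.20, 3.96, 7.55 and 3.86 times, with columns 3 and 5 lowest. Psap, a lysosomal precursor protein, and Gapdh of glycolysis were also among the 15 highest genes of both genotypes. The mean log2 level of Psap was 2.50 in 5xFAD-LynKO and 2.40 in 5xFAD, and that of Gapdh was 2.45 in 5xFAD-LynKO and 2.35 in 5xFAD.

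**Figure D1:**
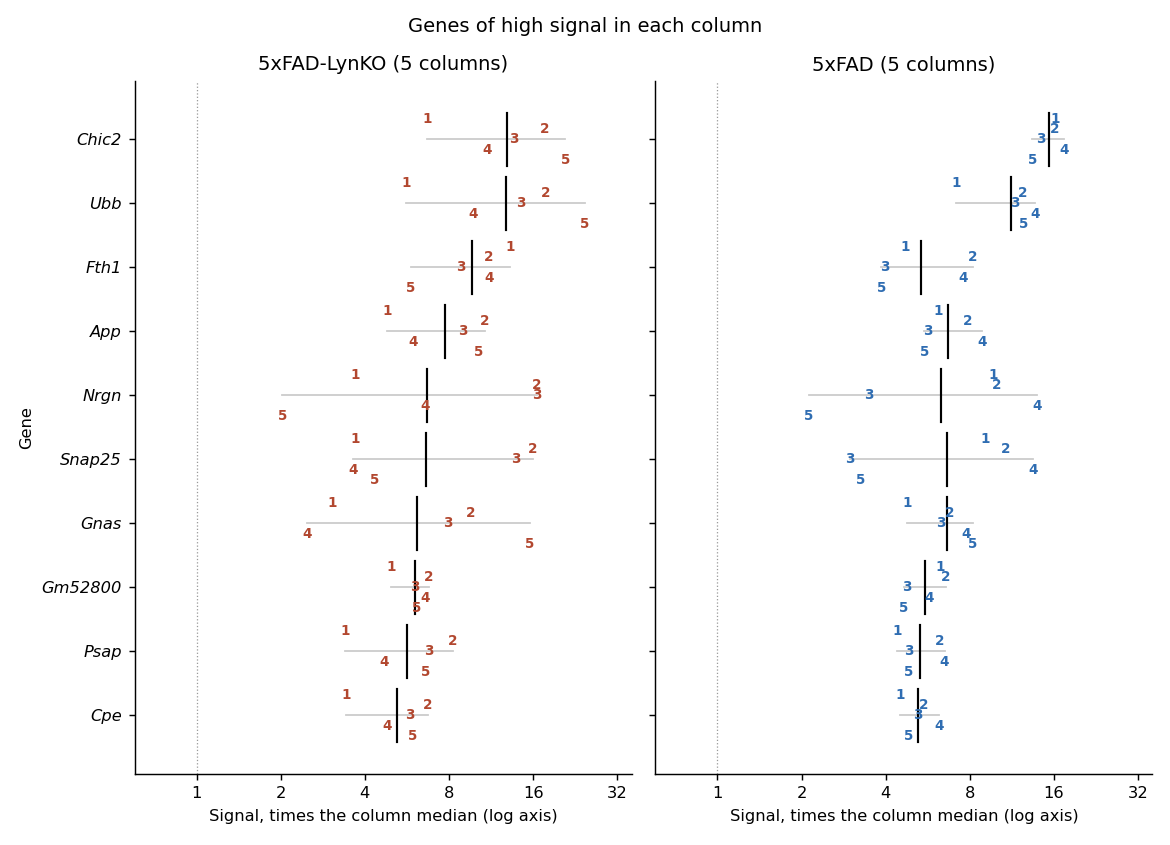
Signal of 10 high genes in each column, in times the column median on a log axis, with 5xFAD-LynKO on the left and 5xFAD on the right. Digits are column numbers, staggered in height only to keep them apart, the grey line spans the columns and the black tick is the mean of the log2 values. Chic2 lay between 13.4 and 17.4 in the 5xFAD columns and between 6.67 and 20.9 in those of 5xFAD-LynKO, and Nrgn spread widely in each.

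Genes with a mean of at least 4 times the column median in both genotypes were ranked by the larger of their 2 SDs. By that rank the predicted gene Gm52800 had the smallest spread on this scale. It was 4.97, 6.77, 6.02, 6.59 and 6.13 times the column median in 5xFAD-LynKO and 6.27, 6.55, 4.76, 5.72 and 4.64 times in 5xFAD. Its SD was 0.18 in 5xFAD-LynKO and 0.23 in 5xFAD. In 5xFAD alone some of these genes had smaller SDs, Chic2 at 0.15 among them. Aplp1, an amyloid precursor-like protein of neurons, had SDs of 0.27 in 5xFAD-LynKO and 0.24 in 5xFAD. Cpe, the carboxypeptidase that trims neuropeptide precursors, had SDs of 0.38 in 5xFAD-LynKO and 0.17 in 5xFAD. Slc1a2, the glutamate transporter of astrocytes, had 0.48 in 5xFAD-LynKO and 0.55 in 5xFAD and was the most spread of the 8 genes chosen for the smallest spread at that level, in 5xFAD past the 0.5 used below for variable genes.

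Over all kept genes, the SD over columns had a median of 0.21 in 5xFAD-LynKO (quartiles 0.14 and 0.30, largest 1.33) and of 0.15 in 5xFAD (quartiles 0.11 and 0.22, largest 1.27), on the log2 scale. Counting noise of the implied counts alone would give medians of 0.079 in 5xFAD-LynKO and 0.087 in 5xFAD. The SD was over 2 times its counting noise in 1370 genes of 5xFAD-LynKO (67.3%) and in 680 of 5xFAD (40.9%). An SD of at least 0.5 was reached by 134 of 2035 genes in 5xFAD-LynKO, 6.58%, and by 37 of 1662 genes in 5xFAD, 2.23%. These counts depended on single columns: without column 1 of 5xFAD-LynKO there were 76 genes, and without column 4 of 5xFAD there were 19. Without column 2 of 5xFAD-LynKO, 1346 genes passed the filter on the negative probe. With 5xFAD columns 3 and 5 averaged into 1, 1500 genes were kept in 5xFAD, their median SD was 0.15 and 27 had an SD of at least 0.5.

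Genes of higher level had larger spread. Spearman's correlation of SD with mean level across genes was 0.46 in 5xFAD-LynKO (2035 genes) and 0.32 in 5xFAD (1662 genes), where all genes share the same 5 columns. Among genes averaging at least 4 times the column median, 25 of 33 in 5xFAD-LynKO and 8 of 27 in 5xFAD had an SD of at least 0.5. Their median SD was 0.64 in 5xFAD-LynKO and 0.36 in 5xFAD.

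**Figure D2:**
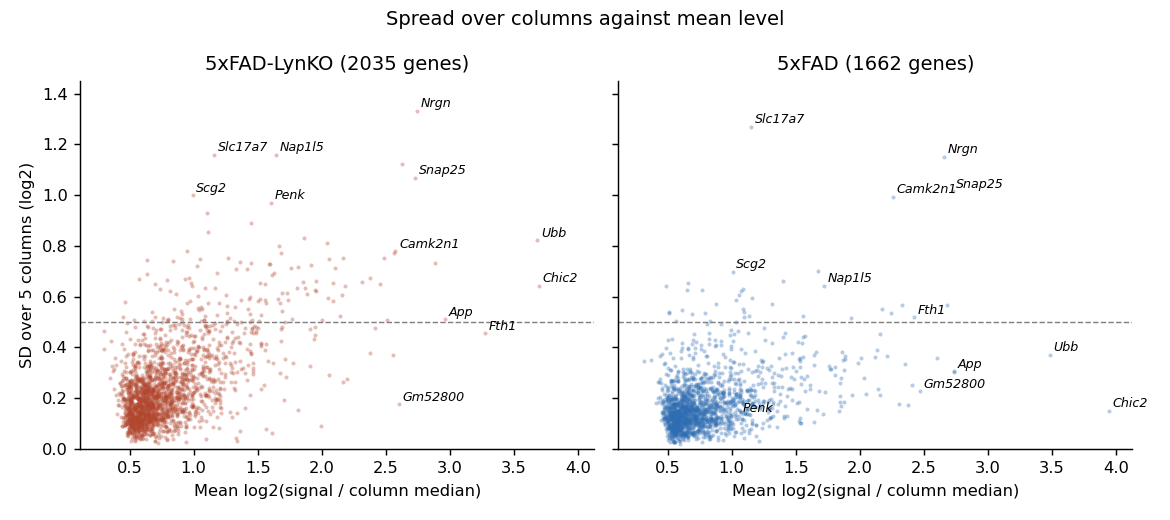
SD over 5 columns of log2(signal / column median) against the mean of the same values, 1 point per kept gene, for 5xFAD-LynKO on the left and 5xFAD on the right, with a dashed line at an SD of 0.5. Nrgn, Slc17a7 and Snap25 stood far above the median SDs of 0.21 in 5xFAD-LynKO and 0.15 in 5xFAD. Gm52800 was high in level, with an SD of 0.18 in 5xFAD-LynKO and 0.23 in 5xFAD.

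Genes known from glutamatergic neurons of the forebrain were among those that varied most. Nrgn, a calmodulin-binding protein of dendritic spines, had the largest SD in 5xFAD-LynKO, 1.33, and the second largest in 5xFAD, 1.15. It stood at 3.70, 16.5, 16.5, 6.56 and 2.03 times the column median in 5xFAD-LynKO columns 1 to 5, and at 9.68, 9.93, 3.49, 13.9 and 2.12 times in 5xFAD columns 1 to 5. In 5xFAD-LynKO, columns 2 and 3 were high and column 5 was lowest. In 5xFAD, columns 1, 2 and 4 were high and columns 3 and 5 were low.

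Slc17a7, the vesicular transporter that loads glutamate, showed the same division. It was 1.55, 5.19, 5.42, 1.24 and 1.03 times the column median in 5xFAD-LynKO and 2.66, 5.07, 0.93, 5.11 and 0.84 times in 5xFAD, with an SD of 1.16 in 5xFAD-LynKO and 1.27 in 5xFAD. In 5xFAD columns 3 and 5 it was below the negative probe, so no signal above background was measured there. Snap25, a SNARE protein of synaptic vesicle fusion, was 3.68, 15.9, 13.8, 3.64 and 4.35 times in 5xFAD-LynKO and 9.04, 10.7, 2.97, 13.5 and 3.24 times in 5xFAD. Its SD was 1.07 in 5xFAD-LynKO and 1.02 in 5xFAD.

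Calcium signalling genes had a similar order in 5xFAD but parted from Slc17a7 and Snap25 in column 4 of 5xFAD-LynKO. In that column the 12 listed averaged 1.76 log2, against 0.94 for the 12 synaptic vesicle genes. Camk2n1, an inhibitor of the kinase CaMKII, was 4.00, 11.9, 7.17, 7.27 and 3.03 times the column median in 5xFAD-LynKO and 7.67, 6.65, 2.18, 9.45 and 2.39 times in 5xFAD. Camk2a, the alpha subunit of that kinase, was highest in column 2 of 5xFAD-LynKO, at 6.72 times, and in column 4 of 5xFAD, at 5.70 times. Both genes were lowest in column 5 of 5xFAD-LynKO, and in columns 3 and 5 of 5xFAD. The complexin Cplx1 had an SD of 0.71 in 5xFAD-LynKO and 0.66 in 5xFAD, and the adenylyl cyclase Adcy1 had 0.67 in 5xFAD-LynKO and 0.63 in 5xFAD.

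A pair of genes induced by neuronal activity had a similar order. Egr1, an immediate early transcription factor, was 1.33, 2.81, 3.05, 2.35 and 1.12 times the column median in 5xFAD-LynKO and 2.21, 3.34, 1.30, 3.06 and 1.41 times in 5xFAD. Arc, an activity-induced protein of the synapse, was kept in 5xFAD only, at 1.83, 2.45, 0.94, 2.29 and 1.01 times, and was 1.06, 1.88, 2.08, 1.06 and 0.79 times in 5xFAD-LynKO. Of 12 immediate early genes listed, 1 was kept in 5xFAD-LynKO and 4 in 5xFAD, where 10.2% of all targets were kept in 5xFAD-LynKO and 8.33% in 5xFAD.

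Other genes were high where these were low. Scg2, a granin of dense-core vesicles, was 1.30, 1.48, 1.67, 1.43 and 6.80 times the column median in 5xFAD-LynKO, high in column 5 alone. In 5xFAD it was 1.38, 1.40, 3.94, 1.51 and 2.86 times, high in columns 3 and 5. Nap1l5, an imprinted gene of the nucleosome assembly protein family, was 1.76, 3.62, 2.58, 1.58 and 11.6 times in 5xFAD-LynKO and 2.34, 2.27, 4.29, 2.68 and 6.32 times in 5xFAD. The windows of these genes are among the promoters printed above.

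Gaa, the lysosomal acid alpha-glucosidase, and Resp18, a protein of peptide-secreting cells, had the same shape. Gaa was 1.18, 1.80, 1.86, 1.80 and 6.46 times the column median in 5xFAD-LynKO and 1.44, 1.96, 3.16, 1.74 and 3.26 times in 5xFAD. Resp18 was 1.47, 1.76, 1.498, 1.37 and 5.00 times in 5xFAD-LynKO and 1.435, 1.48, 2.18, 1.46 and 2.43 times in 5xFAD. In each genotype the columns high for these genes were among the lowest for Slc17a7.

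Penk and Pcp4 were highest in column 4 of 5xFAD-LynKO. Penk, the enkephalin precursor, was 1.64, 2.25, 1.82, 7.36 and 5.21 times the column median in 5xFAD-LynKO, with an SD of 0.97, and 1.97, 1.92, 2.32, 1.98 and 2.27 times in 5xFAD, with an SD of 0.13. Pcp4, a modulator of calmodulin, was 1.07, 2.19, 4.12, 5.25 and 2.96 times in 5xFAD-LynKO and 1.62, 2.70, 1.12, 2.81 and 1.52 times in 5xFAD. The myelin gene Mobp had another order. It was 6.73, 3.19, 3.09, 5.87 and 1.60 times in 5xFAD-LynKO and 2.10, 3.88, 1.80, 2.60 and 2.08 times in 5xFAD.

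**Figure D3:**
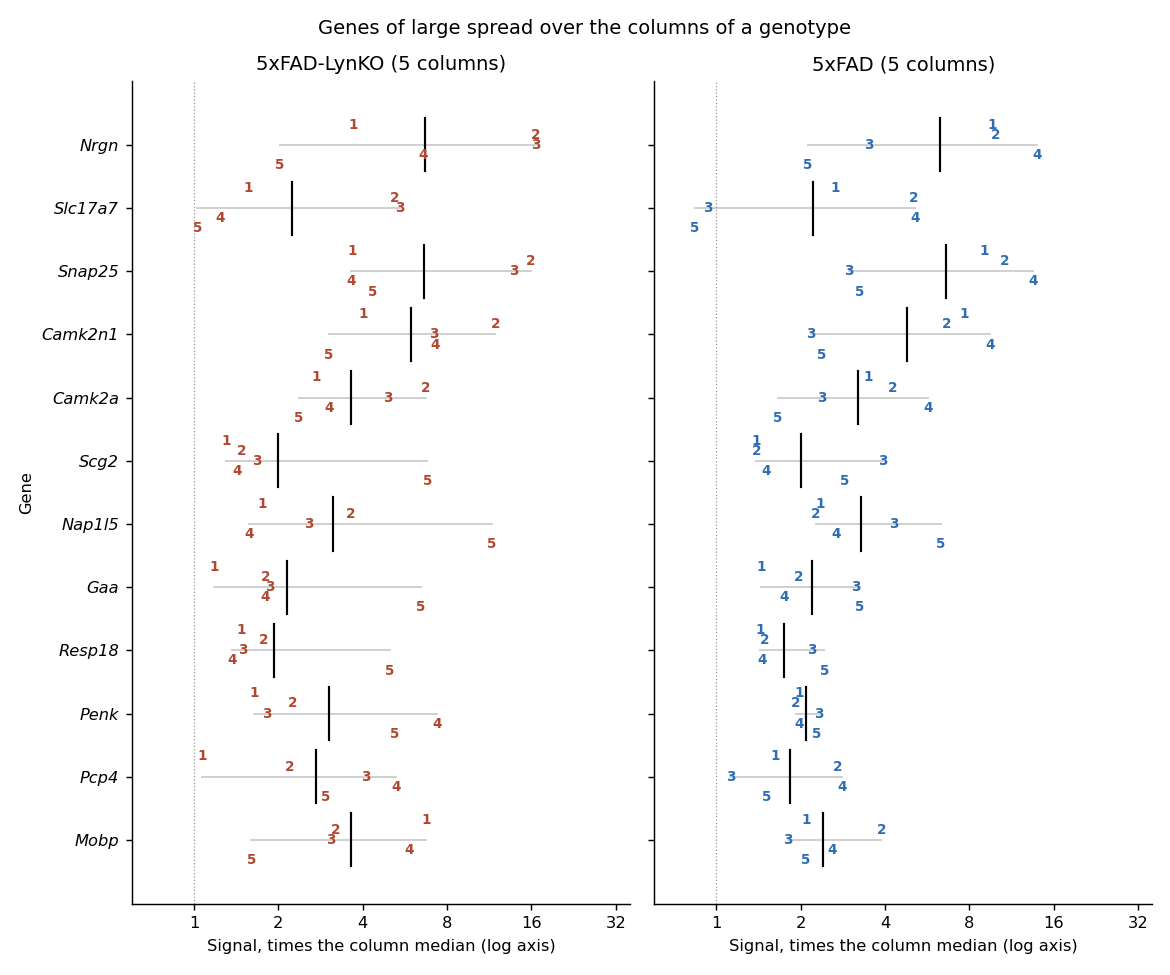
Signal of 12 genes of large spread in each column, in times the column median on a log axis, with 5xFAD-LynKO on the left and 5xFAD on the right. Digits are column numbers, staggered in height only to keep them apart, the grey line spans the columns and the black tick is the mean of the log2 values. Nrgn, Slc17a7 and Snap25 were low in 5xFAD columns 3 and 5, where Scg2, Nap1l5, Gaa and Resp18 were high, and those 4 were highest in column 5 of 5xFAD-LynKO.

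The gene lists show how widely these patterns held. Of 12 kept pan-neuronal genes in 5xFAD-LynKO, 9 had an SD of at least 0.5, and of 13 in 5xFAD, 2 did. The mean log2 level of the 14 listed was 0.81, 2.17, 1.86, 1.12 and 1.58 in 5xFAD-LynKO columns 1 to 5 and 1.39, 1.71, 1.19, 1.86 and 1.18 in 5xFAD columns 1 to 5. Synaptic vesicle genes reached that SD in 8 of 10 kept genes in 5xFAD-LynKO and 4 of 11 in 5xFAD, with a median SD of 0.72 in 5xFAD-LynKO and 0.39 in 5xFAD. Calmodulin and calcium signalling genes did so in 8 of 11 in 5xFAD-LynKO and 6 of 10 in 5xFAD, with a median SD of 0.71 in 5xFAD-LynKO and 0.54 in 5xFAD. The shares of all kept genes, 6.58% in 5xFAD-LynKO and 2.23% in 5xFAD, are the background to these counts.

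Excitatory and pan-neuronal lists parted in column 5 of 5xFAD-LynKO. There the 11 excitatory genes averaged 0.49 log2, the lowest of the genotype, while the pan-neuronal mean was 1.58. Excitatory means in columns 1 to 4 of 5xFAD-LynKO were 0.56, 1.43, 1.39 and 1.00. In 5xFAD the excitatory means were 0.96, 1.22, 0.52, 1.38 and 0.28, lowest in columns 3 and 5.

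Ribosomal, glycolysis, mitochondrial and astrocyte lists had smaller median SDs than the synaptic vesicle list. Some lists had larger ones. In 5xFAD-LynKO these were the inhibitory list, at 0.74 with 2 genes kept, and thalamus and hypothalamus, at 0.78 with 1 kept. In 5xFAD, besides calcium signalling, they were the immediate early (0.51), disease-associated microglial (0.47) and excitatory (0.43) lists. The 12 kept ribosomal protein genes had a median SD of 0.35 in 5xFAD-LynKO and 0.12 in 5xFAD, and 1 of them in 5xFAD-LynKO, Rpl3, and 0 in 5xFAD reached 0.5. Of 12 kept glycolysis genes, 6 in 5xFAD-LynKO and 0 in 5xFAD reached it, with a median SD of 0.49 in 5xFAD-LynKO and 0.27 in 5xFAD. No significance test was run on any list. Kept nuclear genes of mitochondrial respiration had median SDs of 0.38 in 5xFAD-LynKO and 0.22 in 5xFAD. Kept astrocyte genes, 9 in 5xFAD-LynKO and 11 in 5xFAD, had a median SD of 0.38 in 5xFAD-LynKO and 0.21 in 5xFAD, and 1 gene in each reached 0.5, Sparcl1 in 5xFAD-LynKO and Slc1a2 in 5xFAD.

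Of 4 lists of brain area markers, those of striatum and of thalamus and hypothalamus differed most between columns in 5xFAD-LynKO. The SDs of their list means over columns were 0.56 and 0.17 there. In 5xFAD the list of thalamus and hypothalamus differed most, at 0.20, and that of striatum least, at 0.04. The 11 striatum markers averaged 1.46 log2 in column 4 of 5xFAD-LynKO and 0.10 to 0.34 in its other columns, and 0.14 to 0.25 in 5xFAD. Ppp1r1b was 8.25 times the column median in that column and 0.79 to 1.28 times in the other 4, and the adenylyl cyclase Adcy5 was 3.09 times and 1.03 to 1.64 times. The 14 markers of thalamus and hypothalamus averaged 0.31 in column 5 of 5xFAD-LynKO and -0.12 to -0.03 in its others, and 0.40 in column 5 of 5xFAD and -0.12 to 0.14 in its others. Single members carried much of these means: without Resp18 the mean in column 5 of 5xFAD-LynKO was 0.15, and without Oxt that in column 5 of 5xFAD was 0.20. The 15 markers of cortex and hippocampus differed little, with means of 0.09 to 0.29 in 5xFAD-LynKO and 0.13 to 0.29 in 5xFAD. Of 14 markers of midbrain, hindbrain and cerebellum, 0 were kept in either genotype. The share kept over all targets was 10.2% in 5xFAD-LynKO and 8.33% in 5xFAD.

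Ppp1r1b and Adcy5 were over 1.5 times the negative probe in too few columns of 5xFAD-LynKO to be kept, but over 3 times it in at least 1. There were 17 such genes in 5xFAD-LynKO, with their peak in column 5 for 12, in column 4 for 4 and in column 2 for 1, and 3 in 5xFAD. Over all kept genes of 5xFAD-LynKO, column 5 was highest in 41.1%, column 4 in 6.44% and column 2 in 44.0%. The 17 were picked for a high value in few columns, so their peaks were not tested against those shares. Oxt, which encodes oxytocin, was 8.00 times the column median in column 5 of 5xFAD and 1.02 to 1.09 times in the other 4. Hap1, the huntingtin-associated protein, was 6.08 times in column 5 of 5xFAD-LynKO and 0.79 to 0.92 times in its others, and 3.67 and 3.01 times in 5xFAD columns 3 and 5 and 0.95 to 1.08 times in its others. Nnat, an imprinted proteolipid of developing neurons, was 5.09 times in column 5 of 5xFAD-LynKO, and 2.69 and 3.09 times in columns 3 and 5 of 5xFAD. The headings name no brain area, and the area of each column was not tested.

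**Figure D4:**
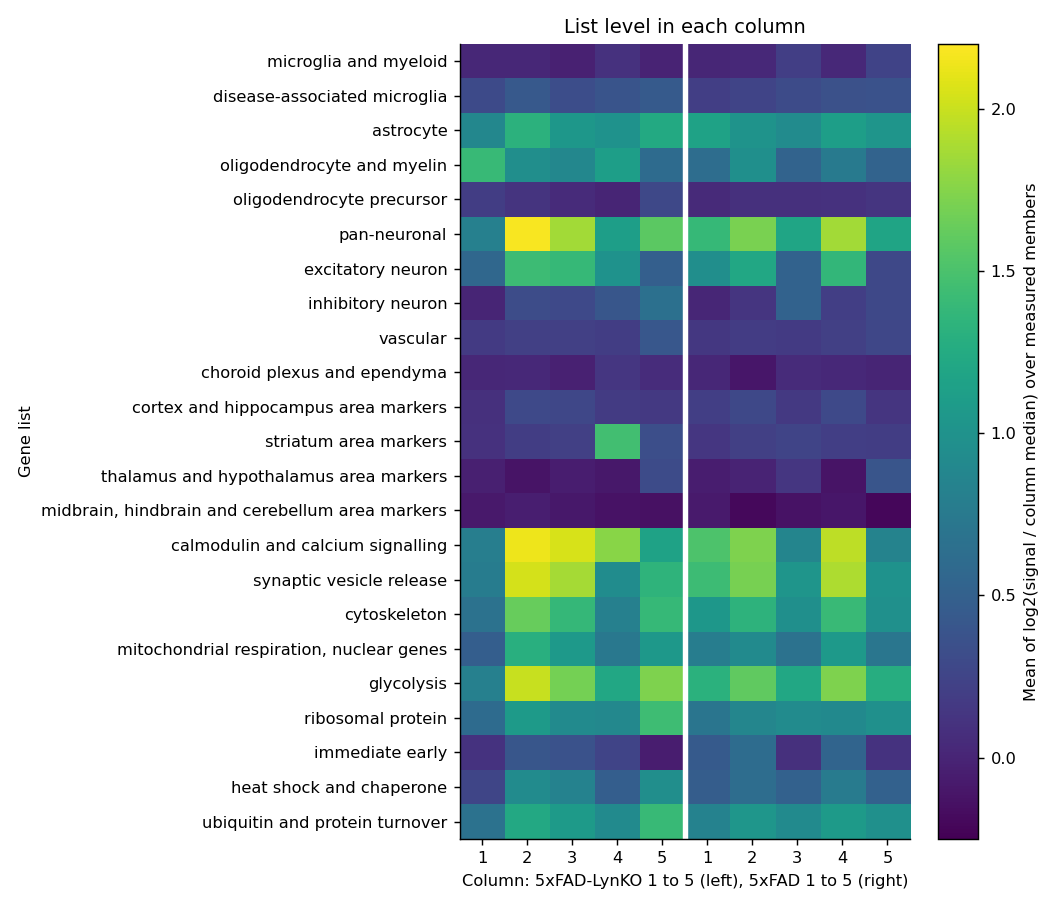
Mean of log2(signal / column median) over the measured genes of 23 lists, 1 row per list and 1 column of the map per column of the table, with 5xFAD-LynKO left of the white line and 5xFAD right of it. The striatum row is bright in 5xFAD-LynKO column 4 at 1.46, and the pan-neuronal row runs from 0.81 to 2.17 in 5xFAD-LynKO and from 1.18 to 1.86 in 5xFAD.

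Columns moved as wholes. In 5xFAD-LynKO the first principal component held 67.3% of the variance of the kept genes, with scores of -0.70, 0.46, 0.16, -0.33 and 0.41 in columns 1 to 5. In 5xFAD it held 65.5%, with scores of 0.08, 0.31, -0.51, 0.62 and -0.50. The 5xFAD scores had the order of the columns' numbers of targets above background. Those of 5xFAD-LynKO did so except that columns 2 and 5 changed places. Scores and numbers come from the same values and the same cut on the negative probe, so their orders are not independent. A link was not tested. Among the 134 genes with an SD of at least 0.5 in 5xFAD-LynKO, column 1 was lowest in 97, 72.4%, close to the 71.3% over all kept genes. Among the 37 in 5xFAD, columns 3 and 5 were the lowest pair in 32 and the highest pair in the other 5, against 31.6% and 6.56% over all kept genes.

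The spread of most named genes depended on whether the negative probe was subtracted. Of 126 SDs, 121 left the range that leaving out 1 column gives when the negative probe alone was subtracted. Scaling by the negative probe moved 3 of the 126 out of that range, and scaling by the 75th percentile moved 3. A pseudocount of 1 left all 126 within it. Under the following setting, 84 left it. With the negative probe subtracted and each column scaled to the median remaining signal, a setting added after the data were seen, the SD of Chic2 in 5xFAD-LynKO was 0.29 in place of 0.64, and that of App was 0.19 in place of 0.51. The SD of Nrgn was 1.64 in place of 1.33 in 5xFAD-LynKO, and 1.31 in place of 1.15 in 5xFAD. Snap25 had 1.05 in 5xFAD-LynKO and 1.05 in 5xFAD. Slc17a7 had 2.327 in place of 1.16 in 5xFAD-LynKO and 2.62 in place of 1.27 in 5xFAD. Its columns 3 and 5 in 5xFAD were set by the floor on the remainder, and none in 5xFAD-LynKO was. Penk in 5xFAD had 0.41 in place of 0.13. Gm52800 had 0.31 in 5xFAD-LynKO and 0.25 in 5xFAD, and Cpe (0.14 in 5xFAD-LynKO, 0.15 in 5xFAD), Aplp1 (0.14 in 5xFAD-LynKO, 0.21 in 5xFAD) and App (0.19 in 5xFAD-LynKO, 0.16 in 5xFAD) were steadier than it.

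Many of the same genes varied in both genotypes. Of the 1457 genes kept in both, 129 in 5xFAD-LynKO (8.85%) and 29 in 5xFAD (1.99%) had an SD of at least 0.5, and 22 (1.51%) had it in both. Of the 100 genes with the largest SD in 5xFAD-LynKO, 55 were also among the 100 largest in 5xFAD, which is 55% of each list, where any 100 genes are 6.86% of the 1457. The lists ended at an SD of 0.53 in 5xFAD-LynKO, between Klc1 and Cx3cl1, and at 0.34 in 5xFAD, between Stk32c and Sult4a1. With 50 genes a list 23 were shared, and with 200 genes 119 were. With 5xFAD columns 3 and 5 averaged into 1, 60 genes were shared between the lists of 100.

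Across the 1457 genes, the SD in 5xFAD-LynKO and the SD in 5xFAD had a Spearman correlation of 0.53 and a Pearson correlation of 0.67. High genes spread more in each genotype, and with that trend on level taken off the correlations were 0.33 and 0.52, with 47 genes in common among the 100 largest. Mean levels themselves had a Spearman correlation of 0.89. The genes are not independent of each other, since all are read from the same 10 columns, and no p is given. WT columns, which took no part in the choice, had an SD of at least 0.5 in 24 of the 55 shared genes, 43.6%, against 3.43% of the 1457. That background was not matched on level. Among WT genes over the same filter and averaging at least 4 times the column median, 15 of 63 had such an SD.

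The 55 shared genes were led by Nrgn, Slc17a7, Snap25, Nap1l5, Camk2n1 and Scg2. They held 8 of the 10 calmodulin and calcium signalling genes kept in both genotypes (among them Calm2, Camk2n1, Pcp4, Nrgn, Ppp3ca, Ppp3r1 and Atp2b2) and 8 of 10 synaptic vesicle genes. They also held 5 of 7 excitatory, 5 of 12 pan-neuronal and 2 of 6 myelin genes, Mobp among them. Of 12 ribosomal protein, 12 mitochondrial and 9 astrocyte genes, 0 were among them, which at a share of 3.77% over all 1457 genes is near the background. In 5xFAD-LynKO, column 2 was highest in 33 of the 55 and column 1 lowest in 35, against 44.0% and 71.3% of all kept genes. In 5xFAD, column 4 was highest in 43 and column 5 lowest in 30, against 60.8% and 24.7% of all kept genes.

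**Figure D5:**
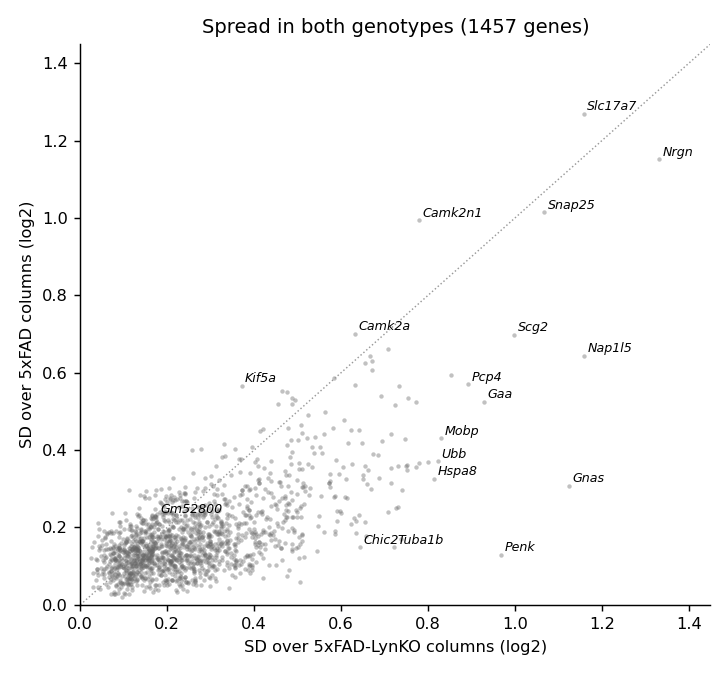
SD over the 5 columns of 5xFAD (vertical) against SD over the 5 columns of 5xFAD-LynKO (horizontal) for the 1457 genes kept in both, with a dotted line of equal SD. Slc17a7, Nrgn and Snap25 were above 1 in each, Penk had 0.97 in 5xFAD-LynKO and 0.13 in 5xFAD (0.41 there under the added scaling), and Camk2n1 and Kif5a lay above the line. Under the added scaling Kif5a had 0.51 in 5xFAD-LynKO and 0.55 in 5xFAD.

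Other genes had unlike SDs in the 2 genotypes. The SD was the larger in 5xFAD-LynKO for 1078 of the 1457 genes, 74.0%, and this difference was not tested. It depended on the filter and on single columns. Without column 1 the median SD of kept genes in 5xFAD-LynKO was 0.165, against 0.152 in 5xFAD. With no filter the medians were 0.128 in 5xFAD-LynKO and 0.129 in 5xFAD. Penk had 0.97 in 5xFAD-LynKO and 0.13 in 5xFAD, and with the negative probe subtracted 1.43 in 5xFAD-LynKO and 0.23 in 5xFAD. Gnas, the stimulatory G protein alpha subunit, had 3.07, 9.52, 7.93, 2.48 and 15.6 times the column median in 5xFAD-LynKO and 4.77, 6.77, 6.30, 7.75 and 8.19 times in 5xFAD, with an SD of 1.12 in 5xFAD-LynKO and 0.31 in 5xFAD. The tubulin Tuba1b had 0.72 in 5xFAD-LynKO and 0.15 in 5xFAD, and the chaperone Hspa8 had 0.81 in 5xFAD-LynKO and 0.33 in 5xFAD. Kif5a, a kinesin of axonal transport, ran the other way, with 0.37 in 5xFAD-LynKO and 0.57 in 5xFAD, as did Camk2n1, with 0.78 in 5xFAD-LynKO and 0.99 in 5xFAD. Under the added scaling Kif5a had close SDs, 0.51 in 5xFAD-LynKO and 0.55 in 5xFAD. Camk2n1 then had 0.94 in 5xFAD-LynKO and 1.15 in 5xFAD. In WT columns the SD was 1.305 for Penk, 0.78 for Gnas, 0.43 for Tuba1b and 0.50 for Hspa8. It was 0.54 for Kif5a and 0.85 for Camk2n1 there. With 5 columns each in 5xFAD-LynKO and 5xFAD and an unknown number of animals, these SDs describe the columns deposited.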

How the data were processed

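The deposited table holds 19963 rows in 16 columns, 1 row being the negative probe. Per the labels' protocols, GeoMx tags from frozen sections were sequenced on an Illumina NextSeq instrument. The authors' deposited values are a non-negative signal, and the sources used here name no software, probe filter or normalization. Per column, 19959 rows were whole multiples of 1 step (tolerance 1e-06), from which implied counts came. The smallest value was 30 to 66 steps in these 10 columns, so no count model was used. Levels are log2 of the value over the column median, with no pseudocount, and SDs are over 5 columns. A fold on this scale understates changes near the negative probe. Columns were assigned by genotype only, with no test and no p. Named genes were the checks (Tmem119, Gfap, Lyn), the 15 highest and 15 most variable kept genes of each genotype, the 8 steadiest high genes and leading members of the 23 lists (281 of 283 genes measured). Genes above the negative probe in few columns, Ppp1r1b, Adcy5, Oxt, Hap1 and Nnat, were chosen after their values were seen. Genes and lists were chosen with earlier results of these data known. Steps were tested on simulated data, and python 3.11.15, pandas 2.3.3, numpy 2.4.6 and matplotlib 3.10.9 were used. Some items are not reported here. Alternatives covered scaling, pseudocount, background, filters, spread measure and left-out columns.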

Additional observations from a re-analysis of the deposited data

Results flagged for a closer look

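In 12 of 188 groups of 5 columns (6.38%), 1 column stood apart from the other 4, its gap to the nearest being over 0.71 of the whole range on the log2 scale (Dixon's critical value). Chance gives about 1 in 20 for independent groups, but many of these genes were named for their spread and all share the same columns, so that rate is not a background here. Column 5 of 5xFAD-LynKO was the high one for Scg2 at 6.795 times the column median, Gaa at 6.459, Resp18 at 5.0, Ndn, an imprinted neuronal gene, at 4.137, and Ptprz1, a receptor phosphatase of glial precursors, at 2.089. It was also highest for the mean of the vascular list, 0.4175 log2, and of the thalamus and hypothalamus list, 0.3084. Of the 12 vascular genes 2 were kept. Sparc, a member not kept, was 2.945 times the column median in that column and 0.77 to 1.06 times in the others. Column 4 of 5xFAD-LynKO was the high one for the mean of the striatum list, 1.463, and for Rgs9, a regulator of G protein signalling in striatum, 2.285 times the column median. Column 1 of 5xFAD-LynKO was the low one for Actb, 2.252 times. Column 1 of 5xFAD was the low one for Ubb, 7.149 times, and column 2 of 5xFAD for the mean of the choroid plexus and ependyma list, -0.1011.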

How the results depend on the processing

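Under other settings, 97 summary values stayed near those given and 41 moved. Scaling by the negative probe gave a median SD of 0.239 in 5xFAD-LynKO, and scaling by the 75th percentile gave 0.165. Subtracting the negative probe gave median SDs of 0.552 in 5xFAD-LynKO and 0.372 in 5xFAD, 1159 and 448 genes of SD at least 0.5, and a rank correlation of SDs of 0.360. The added scaling to column signal gave 0.340 and 0.303, 515 and 289 genes, and 0.345. A filter of 2 times the negative probe kept 510, 391 and 365 genes (5xFAD-LynKO, 5xFAD, both), with medians of 0.348 and 0.211 and a correlation of 0.586. Requiring every column kept 715, 854 and 542 genes, 75 and 16 of SD at least 0.5, with a correlation of 0.624. No filter gave medians of 0.128 and 0.129 and a correlation of 0.235. Taking off counting noise gave a 5xFAD median of 0.126. SD thresholds of 0.4 and 0.7 gave 274 and 37 genes in 5xFAD-LynKO and 73 and 5 in 5xFAD, and lists of 50 and 200 genes shared 23 and 119. Leaving out 1 column at a time gave 1346 (without column 2) to 1986 kept genes in 5xFAD-LynKO, medians of 0.165 to 0.221 there and 0.120 to 0.159 in 5xFAD, 76 (without column 1) to 156 genes of SD at least 0.5 in 5xFAD-LynKO and 19 (without column 4) to 30 in 5xFAD, and correlations of 0.416 to 0.564. The causes were not tested. No paired analysis was possible because no test was made and column numbers pair no samples in the labels. Low genes lie close to the negative probe, which bounds their spread.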

Other observations

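Values of imprinted genes, expressed from 1 parental copy, were also set out by column. Of 30 such genes, listed after the values were seen, 25 were measured, and 7 were kept in 5xFAD-LynKO and 9 in 5xFAD. Of the 7 in 5xFAD-LynKO, 6 were highest in column 5, where Peg3, a zinc finger protein, had 6.96 times the column median against 1.93 to 3.19 times in the other columns. The exception was Snrpn, a splicing protein of neurons, highest in column 2. Of the 9 in 5xFAD, 5 were highest in column 5, 3 in column 4 and 1 in column 3. Over all kept genes, column 5 was highest in 41.1% in 5xFAD-LynKO and 9.57% in 5xFAD. Their SDs had medians of 0.73 in 5xFAD-LynKO and 0.30 in 5xFAD. No test was made of this list, which was chosen from these values.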
